A study of Rattus norvegicus with 9 samples.

Results

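The small leucine-rich proteoglycans (SLRPs) were followed in rat bladder tumors, in the tissue beside those tumors and in normal rat bladders. The 9 genes Ogn, Dcn, Lum, Bgn, Fmod, Aspn, Omd, Prelp and Podn were chosen by name, and every probe set that the platform annotation gives to 1 of these symbols was taken. They had 13 of the 31042 probe sets tested: 4 for Ogn, 2 for Aspn and 1 for each of the other 7 genes. These are 9 of the 14217 genes measured, and each is described by its brightest probe set over the 9 arrays, with the others beside it. The arrays were Affymetrix 3′ expression arrays hybridised with biotin-labeled cRNA made from total RNA. Group A was bladder tumor tissue and group B the adjacent tissue that the submitters call normal, both from the same 3 female Sprague-Dawley (SD) rats. Their bladders had been instilled weekly with N-methyl-N-nitrosourea (MNU), a DNA-alkylating carcinogen, at 20 mg/ml for 10 weeks, and their tumors were typed as bladder transitional cell carcinoma (BTCC) from stained sections. Group C was bladder tissue from 3 other, normal SD rats. All 9 sample records carry the same MNU text and the same age, 10 weeks, so only the series design separates the normal rats from the instilled ones. Adjacent tissue was therefore exposed to the carcinogen as well, and normal bladder differs from both other groups in animal and in exposure together.

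SLRPs are secreted matrix proteins whose leucine-rich repeats form a curved solenoid that binds collagen fibrils. Many carry chondroitin, dermatan or keratan sulfate chains, and through protein core and chains they set fibril diameter and spacing and hold growth factors such as TGF-β in the matrix. In the bladder wall they are made mainly by fibroblasts of the lamina propria and by smooth muscle, not by the urothelium that lines the lumen.

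All values are MAS 5.0 signals on the log2 scale as deposited, and a signal under 50 (5.64 on the log2 scale) is called dim here. Array medians lay between 6.87 and 7.23, and arrays correlated at r = 0.94 to 0.946 among normal bladders, 0.899 to 0.931 among tumors and 0.9 to 0.923 among adjacent tissues. Of the urothelial markers, the uroplakin genes Upk1b and Upk3a were bright on every array, at 13.02 to 14.10 and 13.46 to 14.16. Krt20, a keratin of the superficial urothelium, was -3.82 in tumor (adjusted p = 0.0208) and -1.70 in adjacent tissue (adjusted p = 0.00528), and Upk1a was -1.31 in tumor (adjusted p = 0.0482, log2 differences from normal, all in limma). The 12 smooth muscle markers summed to 69.4%, 2.58% and 2.91% of the normal mean in tumors 1 to 3 and to 33.8%, 10.8% and 4.52% in adjacent tissues 1 to 3. The first tumor array therefore stood apart from the other tumors in its muscle marker signal, and the tumor results of the members and gene lists below are given with and without it. The adjacent tissue did not resemble normal bladder: all 7 measured basal and squamous epithelium markers were higher in tumor and 6 of them in adjacent tissue, and their summed signal was 954% to 1910% of the normal mean in adjacent tissue. Leukocyte markers summed to 187%, 223% and 278% of the normal mean in tumors 1 to 3 and to 192%, 196% and 556% in adjacent tissues 1 to 3. In the third adjacent tissue the markers S100a8 and S100a9 weigh most in that sum. Their log2 signals there were 14.29 and 14.76, against 4.09 to 7.06 in normal bladders.

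SLRP signals were lower in both tumor and adjacent tissue than in normal bladder, with the order of the losses differing by gene. In tumor against normal, 3 of the 9 genes (Ogn, Omd and Aspn) fell at an adjusted p under 0.05 in limma, the threshold used throughout, and none rose. Over all genes, 9.95% fell and 13.6% rose in the same fit. The median log2 difference of the 9 genes was -2.59, against 0.05 over all genes. Of the 9, 8 had an unadjusted p under 0.05 in limma, as did 5693 of all 14217 genes. In 7 of the 9 genes every tumor lay below every normal bladder, a pattern that 20.1% of all genes showed. In adjacent tissue against normal, 7 of the 9 genes fell (all but Bgn and Prelp) and none rose, against 11.5% and 13.3% of all genes. All 9 genes had every adjacent tissue below every normal bladder (21.9% of all genes), with a median log2 difference of -1.77, against 0.01 over all genes. Both comparisons share the normal arrays. In bulk tissue, fewer cells of a type and less RNA per cell cannot be told apart.

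**Figure D1:**
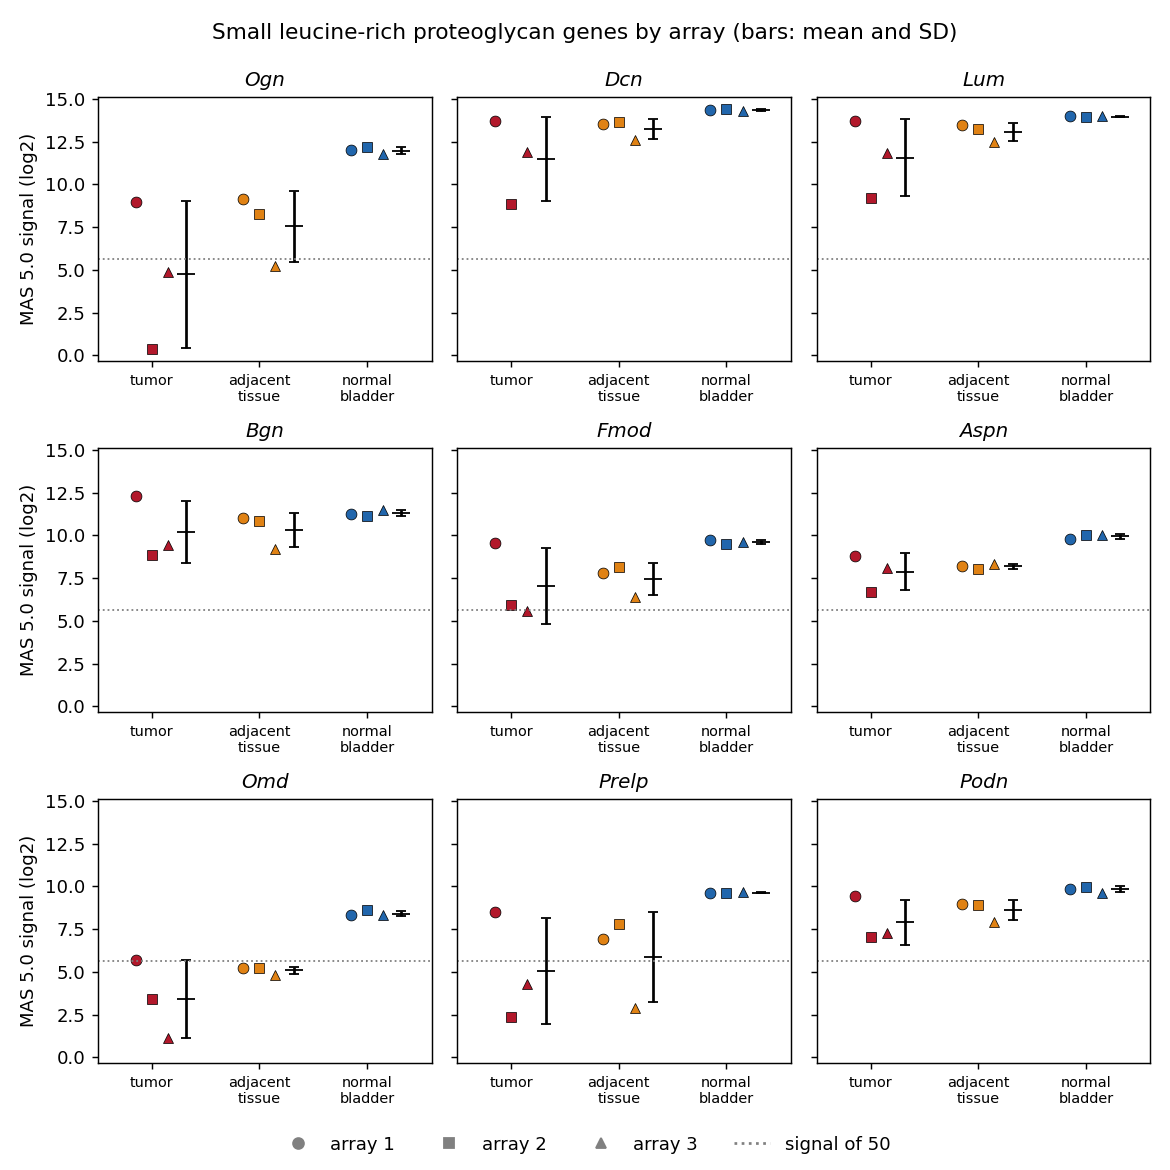
Log2 signal (y axis) of the brightest probe set of each of the 9 SLRP genes, 1 panel a gene, in tumor, adjacent tissue and normal bladder (x axis), with 1 marker shape per array number and a dotted line at a signal of 50. The normal arrays lie close together in every panel, the first tumor is the highest tumor for all 9 genes, and Ogn, Omd, Prelp and, in the third tumor, Fmod reach below the dotted line.

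Decorin (Dcn) and biglycan (Bgn) are closely related chondroitin or dermatan sulfate proteoglycans. Decorin coats collagen fibrils and binds TGF-β, and biglycan released from matrix signals through Toll-like receptors TLR2 and TLR4. Dcn had log2 signals of 13.73, 8.85 and 11.90 in tumors 1 to 3, 13.56, 13.63 and 12.57 in adjacent tissues 1 to 3, and 14.37, 14.43 and 14.30 in normal bladders 1 to 3. No tumor or adjacent array reached the normal range, and the second tumor held 2.19% of the normal level while the first held 64.5%. The tumor difference was -2.87 ± 1.07 (log2, SE; 95% interval -5.38 to -0.37; adjusted p = 0.108 in limma), so the mean was low but the spread among tumors left it short of the threshold. The adjacent difference was smaller and steadier, -1.11 ± 0.27 (adjusted p = 0.0247 in limma), or 46.3% of normal.

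Bgn was the member whose tumors overlapped the normal bladders most. Its log2 signals were 12.29, 8.86 and 9.44 in tumors, 11.01, 10.82 and 9.18 in adjacent tissues, and 11.25, 11.15 and 11.51 in normal bladders. The first tumor stood at 197% of the normal level, the highest of all 9 arrays, and the other tumors at 18.3% and 27.5%. The differences were -1.11 ± 0.80 for tumor (adjusted p = 0.387; two-sided exact permutation p = 0.4, where 0.1 is the smallest that 3 against 3 arrays allow) and -0.97 ± 0.43 for adjacent tissue (adjusted p = 0.169, all in limma unless stated). Its 95% intervals, -2.99 to 0.77 and -1.98 to 0.03, both include 0.

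Lumican (Lum), fibromodulin (Fmod) and PRELP are keratan sulfate family SLRPs. Lumican and fibromodulin bind the same region of fibrillar collagen, and PRELP links collagen to the heparan sulfate of basement membranes. Lum had log2 signals of 13.69, 9.20 and 11.82 in tumors, 13.50, 13.24 and 12.47 in adjacent tissues, and 14.00, 13.93 and 13.99 in normal bladders. The tumors held 82.2%, 3.66% and 22.4% of the normal level, the same order as for Dcn. Lum was -2.40 ± 0.98 in tumor (adjusted p = 0.136 in limma) and -0.91 ± 0.24 in adjacent tissue (adjusted p = 0.0375 in limma), the smallest adjacent difference of the 9 genes.

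Fmod had log2 signals of 9.58, 5.91 and 5.60 in tumors, 7.81, 8.16 and 6.42 in adjacent tissues, and 9.74, 9.48 and 9.64 in normal bladders. The first tumor lay inside the normal range, at 97% of the normal level, and the other tumors at 7.66% and 6.15%, the last of them dim with a signal of 48.4. Every adjacent array lay below the normal range, between 10.8% and 36.4% of it. The differences were -2.59 ± 0.96 in tumor (adjusted p = 0.109 in limma, groups overlapping) and -2.16 ± 0.41 in adjacent tissue (adjusted p = 0.0105 in limma).

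Prelp was the most variable of these 3 genes. It had log2 signals of 8.48, 2.38 and 4.26 in tumors, 6.94, 7.81 and 2.86 in adjacent tissues, and 9.62, 9.61 and 9.68 in normal bladders. Tumors 2 and 3 and adjacent tissue 3 were dim, and no tumor or adjacent array overlapped the normal bladders. The differences of -4.60 ± 1.36 in tumor (adjusted p = 0.0574 in limma) and -3.77 ± 1.11 in adjacent tissue (adjusted p = 0.0505 in limma) both missed the threshold. With signals under 50 set to 50, they were -3.05 and -2.84.

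Ogn, Omd and Aspn were the members that fell in both comparisons with normal bladder. Osteoglycin (Ogn, also called mimecan) and osteomodulin (Omd, also called osteoadherin) were first described in bone, and asporin (Aspn) is a relative of decorin with a run of aspartate residues that binds collagen and restrains TGF-β in cartilage. Ogn, Omd and Aspn, with the related gene Ecm2, follow each other in that order on rat chromosome 17 in RefSeq, inside the span of the centromere protein gene Cenpp. The 3 members that fell in tumor are the 3 on this chromosome, which was noticed after their values were seen. That grouping depends on the threshold and on the arrays. Prelp (-4.60, adjusted p = 0.0574 in limma) and Podn (-1.93, adjusted p = 0.0636 in limma) narrowly missed it in tumor. Without the first tumor all 9 members fell (17.5% of all genes). When a single normal bladder was left out, whichever it was, no member did (2.23% to 2.51% of all genes). The promoter windows of Ogn, Omd, Aspn and Ecm2, 250 bases before to 50 after the start, are shown because these neighbours fell in both comparisons. The sequences are RefSeq's (GRCr8), written 5′ to 3′ in the direction of each gene. The windows lie on the minus strand of the chromosome, at chr17:15258946-15259245 for Ogn, chr17:15274821-15275120 for Omd, chr17:15310420-15310719 for Aspn and chr17:15358806-15359105 for Ecm2. Capitals mark matches, on either strand, to the TATA box letters TATAAA, the CCAAT box, the GC box letters GGGCGG, the AP-1 letters TGANTCA, the TEAD letters GGAATG or the CArG box of serum response factor.
Ogn: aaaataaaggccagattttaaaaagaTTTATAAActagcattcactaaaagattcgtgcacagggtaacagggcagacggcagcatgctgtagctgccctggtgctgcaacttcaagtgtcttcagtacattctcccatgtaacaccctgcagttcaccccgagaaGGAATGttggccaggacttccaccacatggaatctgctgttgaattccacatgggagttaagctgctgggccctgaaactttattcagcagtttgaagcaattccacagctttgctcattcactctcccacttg
Omd: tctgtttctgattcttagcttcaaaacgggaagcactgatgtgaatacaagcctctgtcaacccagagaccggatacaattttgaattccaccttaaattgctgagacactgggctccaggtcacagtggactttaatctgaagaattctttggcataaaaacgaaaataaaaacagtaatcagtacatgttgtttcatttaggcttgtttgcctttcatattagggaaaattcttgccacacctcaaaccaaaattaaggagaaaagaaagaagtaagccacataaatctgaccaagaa
Aspn: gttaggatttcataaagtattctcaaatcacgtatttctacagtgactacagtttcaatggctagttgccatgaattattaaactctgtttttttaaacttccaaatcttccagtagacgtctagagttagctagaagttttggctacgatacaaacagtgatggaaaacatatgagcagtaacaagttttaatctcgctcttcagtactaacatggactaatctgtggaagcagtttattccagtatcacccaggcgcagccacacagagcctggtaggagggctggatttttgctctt
Ecm2: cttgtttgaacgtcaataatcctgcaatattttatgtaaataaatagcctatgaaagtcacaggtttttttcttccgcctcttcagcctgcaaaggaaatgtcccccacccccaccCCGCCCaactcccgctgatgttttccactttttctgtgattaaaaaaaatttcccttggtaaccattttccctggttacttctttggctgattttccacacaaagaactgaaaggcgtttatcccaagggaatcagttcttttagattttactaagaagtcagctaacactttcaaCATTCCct
Ogn had overlapping TATAAA matches beginning at -224 and -222 and a GGAATG match at -84. Ecm2 had a GC box match at -134 and a GGAATG match at +43, and the windows of Omd and Aspn held none of the 6 motifs. Among all 33469 promoter windows of that length, 14.2% held TATAAA, 37.5% CCAAT, 33.1% the GC box, 7.33% the AP-1 motif, 14.2% GGAATG and 1.64% a CArG box. GC content was 46% for Ogn, 37.7% for Omd, 39% for Aspn and 40% for Ecm2. Of the 9 members, 6 matched the promoter table, and Lum, Fmod and Podn also had a CCAAT or GC box match. Dcn, Bgn and Prelp had no entry.

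Ogn had log2 signals of 8.94, 0.37 and 4.90 in tumors, 9.13, 8.27 and 5.21 in adjacent tissues, and 11.99, 12.17 and 11.78 in normal bladders. The linear signals were 491, 1.29 and 29.9 for tumors and 559, 308 and 37 for adjacent tissues, against 4060, 4610 and 3520 for normal bladders. Every tumor and adjacent array was below every normal array, and the last adjacent array and 2 of the tumors were dim. The tumor difference of -7.24 ± 1.85 (adjusted p = 0.0373 in limma) was the largest of the 9 genes, and with signals under 50 set to 50 it was -5.24. In adjacent tissue it was -4.44 ± 0.86 (adjusted p = 0.0111 in limma). The other 3 Ogn probe sets differed by -6.03 ± 0.99, -5.87 ± 1.29 and -6.27 ± 0.83 in tumor (adjusted p = 0.0101, 0.0236 and 0.0057 in limma) and by -5.41, -4.59 and -5.30 in adjacent tissue, all past the threshold.

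Omd had log2 signals of 5.67, 3.41 and 1.12 in tumors, 5.22, 5.22 and 4.83 in adjacent tissues, and 8.32, 8.59 and 8.30 in normal bladders. Tumors 2 and 3 and all adjacent arrays were dim. The tumor difference was -5.00 ± 1.02 (adjusted p = 0.019 in limma), and -2.75 with signals under 50 set to 50. Omd was at least 6.77-fold lower in adjacent tissue (measured difference -3.31 ± 0.27, adjusted p = 0.00061 in limma), the dim arrays being set to 50 for that bound.

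Aspn was lower by a similar amount on all adjacent arrays. Its log2 signals were 8.82, 6.69 and 8.08 in tumors, 8.23, 8.01 and 8.32 in adjacent tissues, and 9.80, 10.05 and 10.01 in normal bladders. None was dim, and tumors held 10.4% to 45.6% of the normal level and adjacent tissues 26% to 32.2%. The differences were -2.09 ± 0.48 in tumor (adjusted p = 0.0278 in limma) and -1.77 ± 0.16 in adjacent tissue (adjusted p = 0.000796 in limma). Its second probe set gave -1.60 ± 0.32 (adjusted p = 0.0176) and -1.62 ± 0.19 (adjusted p = 0.00194, both in limma).

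Ecm2, whose protein carries leucine-rich repeats, was among the 7 other SLRP genes measured and was the only one that fell in tumor. Its log2 signals were 7.68, 1.04 and 5.47 in tumors, 7.11, 7.09 and 2.78 in adjacent tissues, and 10.28, 10.66 and 10.38 in normal bladders. The differences were -5.71 ± 1.47 in tumor (adjusted p = 0.0378) and -4.78 ± 1.05 in adjacent tissue (adjusted p = 0.0177, both in limma). Cenpp, chosen for its position only, gave -0.15 ± 0.36 in tumor (adjusted p = 0.809) and -0.82 ± 0.40 in adjacent tissue (adjusted p = 0.205, both in limma).

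Podocan (Podn), a more distant SLRP that in mice restrains smooth muscle cell growth, had log2 signals of 9.43, 7.01 and 7.25 in tumors, 8.95, 8.91 and 7.93 in adjacent tissues, and 9.87, 9.97 and 9.64 in normal bladders. No array was dim and neither group overlapped the normal bladders. The differences were -1.93 ± 0.59 in tumor (adjusted p = 0.0636 in limma) and -1.23 ± 0.28 in adjacent tissue (adjusted p = 0.0206 in limma).

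**Figure D2:**
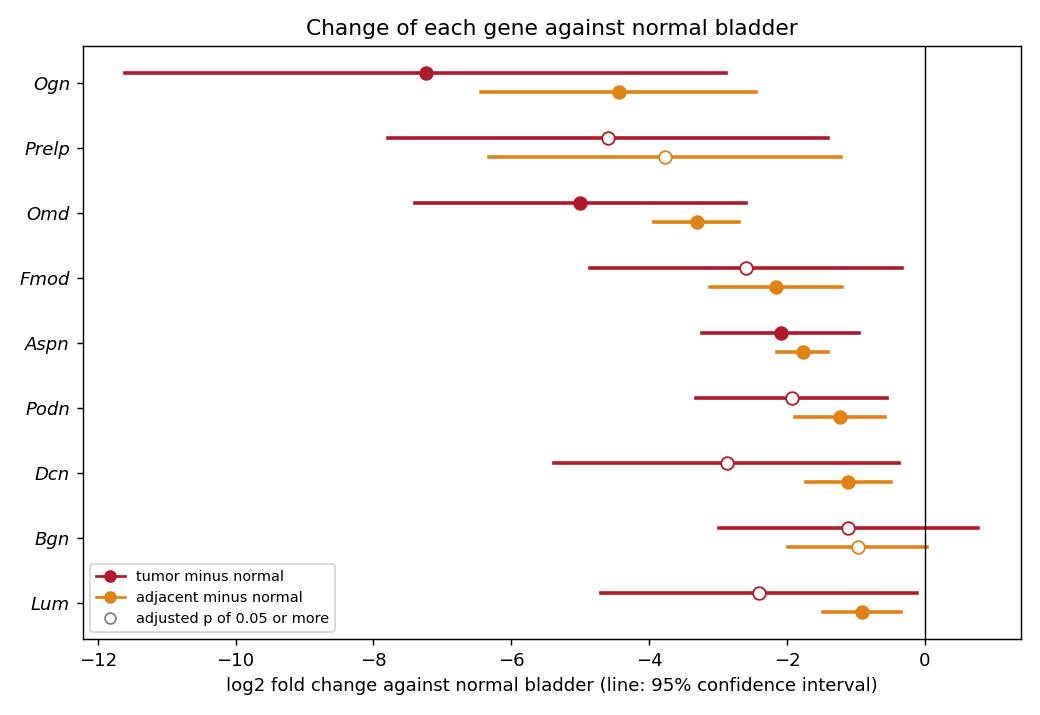
Log2 difference (x axis) from normal bladder for the brightest probe set of each of the 9 SLRP genes (y axis), tumor minus normal and adjacent minus normal, with 95% intervals from limma and open points where the adjusted p was 0.05 or more. All 18 points lie below 0, the tumor intervals are the wider ones, and Ogn, Omd and Aspn have filled points in both comparisons.

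The tumors did not lose these genes equally. The first tumor was the highest tumor for all 9 genes, the second the lowest for 7, and the third for Omd and Fmod. The median shift from the normal mean over the 9 genes was -0.63, -4.77 and -2.58 in tumors 1 to 3 and -1.72, -1.46 and -2.12 in adjacent tissues 1 to 3 (log2). Among adjacent tissues the third was the lowest for 8 of the 9 genes. Without the first tumor, all 9 genes fell, against 17.5% of all genes. Their log2 differences were then -9.34 ± 1.09 for Ogn, -6.32 ± 0.50 for Prelp, -6.13 ± 0.65 for Omd, -3.99 ± 0.73 for Dcn and -3.87 ± 0.19 for Fmod (SE). Those of the remaining genes were -3.47 ± 0.63 for Lum, -2.70 ± 0.16 for Podn, -2.56 ± 0.36 for Aspn and -2.16 ± 0.19 for Bgn, with adjusted p of 1.23e-05 (Fmod) to 0.00539 (Dcn) over the 9 in limma. Without the third tumor, only Omd fell (4.94% of all genes), and without the second, the count was 3 (6.71% of all genes). Leaving out any of the normal bladders left no call among the members in tumor, with 2.23% to 2.51% of all genes falling, and the highest adjusted p with an array left out was 0.119 for Ogn, 0.101 for Aspn and 0.0792 for Omd. In adjacent tissue, leaving out a normal bladder left 3 members, with 5.66% to 5.76% of all genes falling, and Aspn and Omd fell whichever array was left out. The other adjacent calls reached adjusted p = 0.0514 (Ogn), 0.0521 (Fmod), 0.0881 (Podn), 0.0922 (Dcn) and 0.121 (Lum) in limma when a normal bladder was left out: normal 2 for Ogn, normal 1 for Fmod (also lost without normal 3), and any of them for the other 3. Lum also missed the threshold without adjacent tissue 2. Summed over the 9 genes, the SLRP signal was 72.7%, 3.83% and 18.1% of the normal mean in tumors and 57.5%, 54.2% and 27.4% in adjacent tissues, sums in which Dcn and Lum weigh most.

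Tumor and adjacent tissue did not separate for any member. On the brightest probe sets all 9 genes were lower in tumor on average, by differences of -2.80 (Ogn) to -0.14 (Bgn), and tumor and adjacent arrays overlapped in each. No member changed in limma, and 0% of all genes rose and 0% fell. At an unadjusted p under 0.05 there were 0 of 9 members and 376 of 14217 genes, and the methods' t-test at that unadjusted level with a 2-fold threshold called 0 members and 113 genes. Not overlapping and lower in tumor were 2.96% of all genes and none of the 9. The 95% intervals were wide, -4.26 to 0.74 for Dcn and -2.21 to 1.93 for Bgn, so differences of that size could not be detected with 3 arrays a group.

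**Figure D3:**
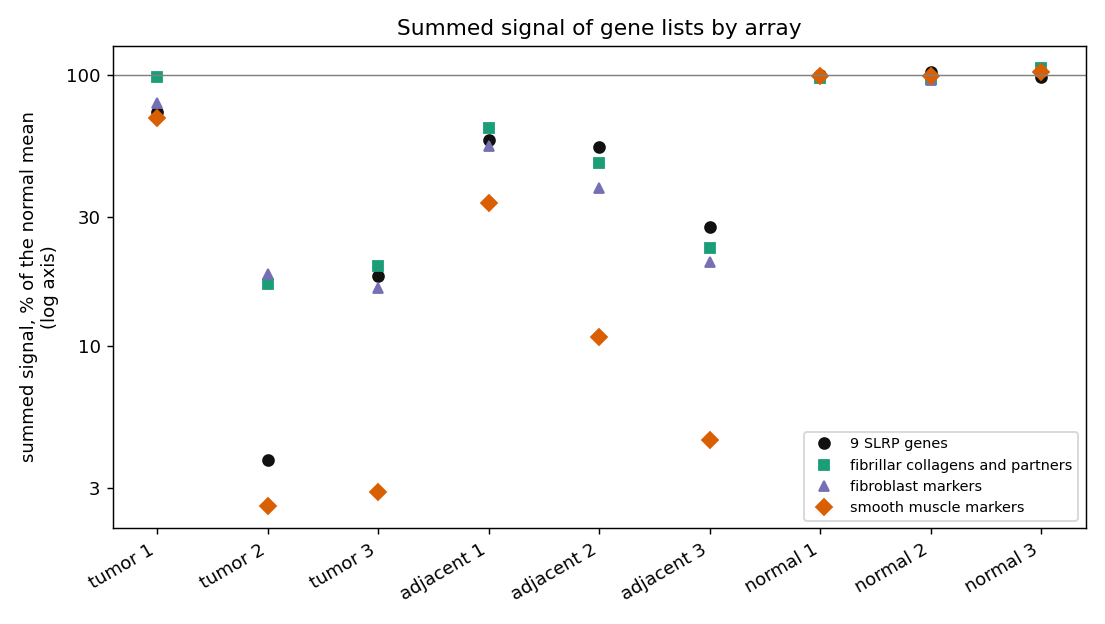
Summed signal of 4 gene lists in each of the 9 arrays (x axis), as a percentage of the normal mean on a log axis: the 9 SLRP genes, fibrillar collagens and their partners, fibroblast markers and smooth muscle markers. All 4 lists are lower in tumors 2 and 3 than in tumor 1, where they lie between 69.4% and 97.7%. Smooth muscle markers are the lowest list in every tumor and adjacent array. The collagen and fibroblast lists share Dpt, Mfap5 and Col14a1.

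Markers of the cells that make SLRPs were lower on the same arrays. Beside the counts of these and the following gene lists, 9.95% of all genes fell and 13.6% rose in tumor. In adjacent tissue 11.5% of all genes fell and 13.3% rose, and without the first tumor 17.5% fell in tumor. Of the 12 smooth muscle markers, 5 fell in tumor and all 12 in adjacent tissue, with median log2 differences of -3.94 and -3.44. Without the first tumor all 12 fell in tumor, with a median of -5.67. Examples are Synpo2, an actin-bundling protein (-4.78 ± 1.08 in tumor, adjusted p = 0.0257), and Myocd, the coactivator of smooth muscle genes (-4.64 ± 1.16, adjusted p = 0.0349, both in limma). Of the 11 fibroblast markers measured, 3 fell in tumor and 5 in adjacent tissue, with medians of -2.84 and -1.16. Their summed signal was 78.7%, 18.4% and 16.4% of normal in tumors 1 to 3 and 54.7%, 38.2% and 20.5% in adjacent tissues. Dpt, Mfap5 and Col14a1 of this list, which each fell in adjacent tissue, are also in the list of fibrillar collagens and partners below. Without the first tumor 8 of the 11 fell in tumor, with a median of -3.77. Clec3b was -4.64 ± 1.17 in tumor (adjusted p = 0.0355 in limma), but the list was not uniform. There Fap gave 0.73, Thy1 0.65, Pdgfrb 0.10 and Vim -0.27, with adjusted p of 0.0895 (Thy1) to 0.912 (Pdgfrb) in limma. Of the 11 urothelial markers measured, 2 rose and 2 fell in each comparison with normal. Those in tumor were the keratins Krt19 (1.10) and Krt7 (0.61), which rose, and Krt20 and Upk1a, which fell, and without the first tumor 3 rose and 4 fell. Urothelial markers summed to 104% to 122% of normal in tumors and 73.2% to 117% in adjacent tissues, sums in which Upk2 and Krt20 weigh little. Upk2, at -2.10 ± 0.65 in tumor, missed the threshold (adjusted p = 0.0652 in limma). The part of muscle and fibroblast content in the SLRP differences was not tested.

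Partners in the collagen matrix had the larger median difference in tumor and more calls in adjacent tissue. Of 28 fibrillar collagens and their partners, 3 fell in tumor (10.7%), a share near the 9.95% of all genes. In adjacent tissue 17 fell (60.7%, against 11.5% of all genes). None rose, and the medians were -1.69 in tumor and -1.42 in adjacent tissue. Without the first tumor, 26 of the 28 fell in tumor (17.5% of all genes), with a median of -2.58. Col14a1, which sits on the surface of collagen fibrils, was -5.08 ± 1.37 in tumor (adjusted p = 0.0439) and -3.67 in adjacent tissue (adjusted p = 0.0208). Mfap2, a microfibril protein, was -2.87 ± 0.81 in tumor (adjusted p = 0.0497) and -2.33 in adjacent tissue (adjusted p = 0.00692, all in limma). Of 15 collagen modifying and crosslinking enzymes, 1 rose and 3 fell in tumor, and 1 rose and 7 fell in adjacent tissue. With the first tumor left out, 1 rose and 11 fell in tumor. The collagen chaperone Serpinh1 was -1.10 ± 0.23 in tumor (adjusted p = 0.0196) and the crosslinking oxidase Loxl3 -1.21 ± 0.34 (adjusted p = 0.0492), while P4hb, a prolyl hydroxylase subunit, was 0.63 ± 0.10 (adjusted p = 0.0104, all in limma).

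Enzymes that build the sugar chains of SLRPs had no common direction. Of 27 measured, 3 rose (11.1%) and 2 fell (7.41%) in tumor, near the 13.6% and 9.95% of all genes, with a median of -0.08. In adjacent tissue 2 rose (7.41%) and 7 fell (25.9%), against 13.3% and 11.5% of all genes, with a median of -0.32. Leaving out the first tumor gave 3 higher and 8 lower in tumor. Ugdh, which makes the UDP-glucuronate used in chain synthesis, was 1.39 ± 0.31 in tumor (adjusted p = 0.0239), and Papss1, which makes the sulfate donor, was 1.01 ± 0.21 (adjusted p = 0.0199). B4galt4, a galactosyltransferase of keratan sulfate, was -1.28 ± 0.25 (adjusted p = 0.0173), and Dsel, a dermatan sulfate epimerase-like enzyme, was -0.79 ± 0.14 (adjusted p = 0.0131, all in limma).

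Receptors and ligands that SLRPs bind were mixed as well. Of 25 measured, 6 rose and 1 fell in tumor and 5 rose and 2 fell in adjacent tissue. Leaving out the first tumor gave 7 higher and 7 lower in tumor. Tlr2, a receptor for biglycan, had log2 signals of 8.84, 9.36 and 8.66 in tumors, 9.05, 8.39 and 9.81 in adjacent tissues, and 6.95, 7.34 and 7.17 in normal bladders. Both groups lay above all normal bladders, at 1.80 ± 0.23 in tumor (adjusted p = 0.00519) and 1.93 ± 0.35 in adjacent tissue (adjusted p = 0.00817, both in limma). Tgfb1 was 6.45, 6.69 and 7.15 in tumors and dim on all normal arrays, at 5.37, 3.04 and 4.44 (adjusted p = 0.0342 in limma). In adjacent tissues it was 4.90 (dim), 6.51 and 6.61, a difference of 1.72 ± 0.73 that missed the threshold (adjusted p = 0.151 in limma). The epidermal growth factor receptor Egfr, bound by decorin, was -0.67 ± 0.14 in tumor (adjusted p = 0.0196 in limma), a direction that its probe sets did not share. Of 11 leukocyte markers, 4 rose in tumor (4 rose and 2 fell without the first tumor) and 5 rose in adjacent tissue. Ms4a1 (-1.21), Cd163 (-1.05) and Csf1r (-0.65) were lower in tumor, with adjusted p of 0.139 (Csf1r) to 0.445 (Cd163) in limma. Among tumors, the third had the highest leukocyte marker sum (278% of the normal mean) and the lowest Tlr2 signal (8.66). That sum rests largely on S100a8 and S100a9, at 12.42 and 13.81 there. Of the other leukocyte markers, Ptprc, Cd74, Itgam, Cd163, Csf1r and Ms4a1 were highest in the first tumor. Cd68 was highest in the second, and Lyz2 and Cd3e in the third. S100a8, a calprotectin subunit, averaged 11.35 in tumors and 12.07 in adjacent tissues. Normal arrays were all dim for it, at a mean of 4.83 (adjusted p = 0.0023 for tumor and 0.00192 for adjacent tissue in limma). S100a9, the other subunit, differed from normal by 6.75 in tumor and 6.84 in adjacent tissue (log2, adjusted p = 0.00403 and 0.00194 in limma). Both were highest in the third adjacent tissue, which also had the highest basal and squamous epithelium marker sum (1910% of the normal mean). Which cells gave the S100a8 and S100a9 signals was not tested. The part of leukocytes in the Tlr2 and protease differences was not tested either.

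Proteases that cut SLRPs included several strong rises. Of 15 measured, 5 rose and 1 fell in each of the 2 comparisons with normal, with medians of 0.44 in tumor and 0.60 in adjacent tissue. With the first tumor left out, 5 rose and 5 fell in tumor, with a median of 0.19. The matrix metalloproteinase Mmp7, an epithelial matrilysin, had log2 signals of 7.78, 12.78 and 13.57 in tumors, 8.25, 8.23 and 13.38 in adjacent tissues, and was dim on all normal arrays, at 1.99, 2.56 and 2.48. The collagenase Mmp13 measured 9.72, 11.81 and 13.05 for tumors and 8.94, 8.40 and 12.27 for adjacent tissues, against 6.40, 5.84 and 5.51 in normal bladders. Its differences were 5.61 ± 0.76 in tumor (adjusted p = 0.00602) and 3.95 ± 0.90 in adjacent tissue (adjusted p = 0.0206, both in limma). On the array with the highest leukocyte marker sum, the third adjacent tissue, Mmp7 and Mmp13 were also the highest of the adjacent arrays. That array had the highest basal and squamous epithelium marker sum as well, at 1910% of the normal mean. The part of either cell type in the protease signals was not tested. Adamts5, a protease that cleaves proteoglycan cores, was -2.22 ± 0.36 in tumor (adjusted p = 0.00981) and -1.72 ± 0.39 in adjacent tissue (adjusted p = 0.02, both in limma).

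Other proteoglycans had no common direction. Of 23 measured, 4 rose and 3 fell in tumor (4 and 8 without the first tumor) and 3 rose and 6 fell in adjacent tissue. The epithelial syndecan Sdc1 was 1.42 ± 0.16 in tumor (adjusted p = 0.00361) and the endothelial proteoglycan Esm1 2.43 ± 0.55 (adjusted p = 0.0254). Sdc2, the syndecan of mesenchymal cells, was -2.19 ± 0.40 in tumor (adjusted p = 0.0136) and -1.77 ± 0.39 in adjacent tissue (adjusted p = 0.0187, all in limma). Hapln1, a link protein of cartilage, was dim on all tumor arrays and on all but 1 of the normal arrays. Vcan, a large matrix proteoglycan, was -0.34 ± 1.02 in tumor (adjusted p = 0.855) and 1.49 ± 0.20 in adjacent tissue (adjusted p = 0.00296, both in limma). Of the 7 other SLRP genes, 1 fell in tumor (14.3%, against 9.95% of all genes), and 2 without the first tumor. In adjacent tissue 3 fell (42.9%, against 11.5% of all genes). Optc was -1.28 ± 0.30 and Chadl -1.52 ± 0.40 in adjacent tissue (adjusted p = 0.0222 and 0.0353 in limma). These 2 fell there together with Ecm2. Chadl was dim on all adjacent arrays (4.79, 4.53 and 4.56) and stood at 6.61, 5.98 and 5.85 in normal bladders. Optc was dim in adjacent tissue 2 (5.62). Tsku was higher in tumor, at 1.21 ± 0.46, and missed the threshold (adjusted p = 0.117 in limma). Of the non-member genes named in tumor against normal, Tlr2, Sdc1, Mmp7, Mmp13, Adamts5, Krt19, S100a8 and S100a9 passed the threshold whichever array was left out. Each of the others named for a call missed it without at least 1 array, Loxl3 reaching adjusted p = 0.155 in limma without normal bladder 3.

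**Figure D4:**
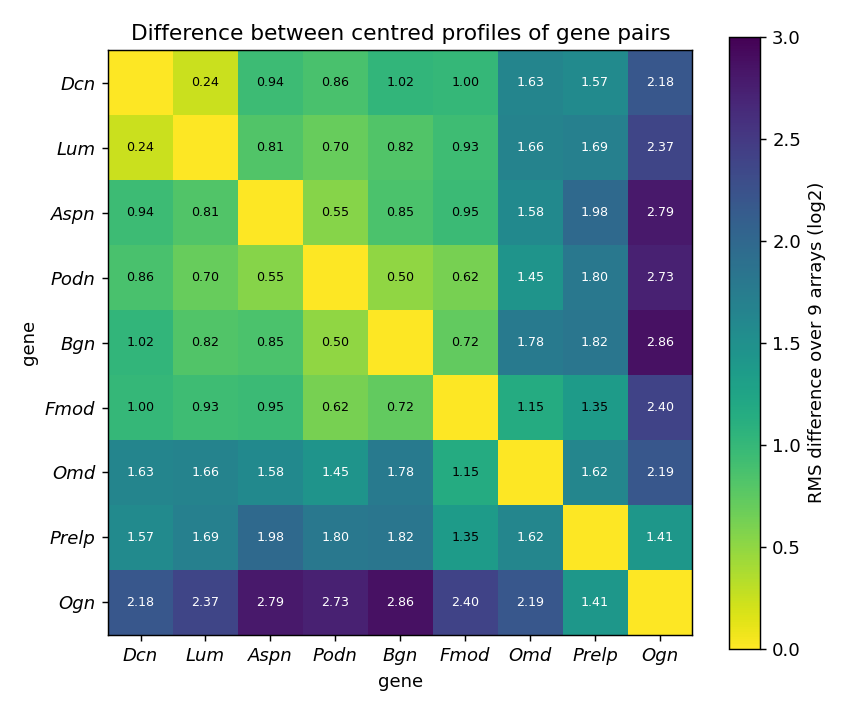
Root mean square difference (log2) over the 9 arrays between the mean-centred profiles of each pair of SLRP genes. Dcn and Lum are the closest pair at 0.24, and Ogn and Bgn the farthest apart at 2.86.

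The profiles of the members over the 9 arrays differed among themselves. After centring each gene on its own mean, Dcn and Lum were the closest pair (root mean square difference 0.24, log2), and Ogn and Bgn the farthest apart (2.86). Ogn spread most around its mean (3.73), followed by Prelp (2.78) and Omd (2.34), and Aspn and Podn least (1.05 each). By the same measure over 11068 genes, the closest to Ogn were Bnc2 at 0.70, Gpc3 at 0.94 and Abca8a at 0.98. Those closest to Dcn were LOC102555465 at 0.31, Pdgfra at 0.32 and A2m at 0.32, and those closest to Lum were Serping1 at 0.27, Pdgfra at 0.32 and Dlg4 at 0.33. For Bgn they were Col6a3 at 0.30, Pcolce at 0.30 and Col5a1 at 0.33, and for Fmod Col1a1 at 0.30, Tagln at 0.33 and Fstl1 at 0.35. For Aspn they were Fry at 0.23, Jph1 at 0.24 and Ryr2 at 0.25, and for Podn Npy1r at 0.18, Myh10 at 0.20 and Lama2 at 0.22. Prelp had Tenm3 at 0.55, Col14a1 at 0.57 and Clec3b at 0.68, and Omd had Smoc1 at 0.27, Zfpm2 at 0.57 and Ppp1r12b at 0.80. The mean profile of the 9 genes was nearest to Colec12 at 0.21, Igfbp5 at 0.24, Olfml1 at 0.28, Srpx at 0.30 and Plekha4 at 0.31. All points share the same 9 arrays, so these likenesses are a description.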

How the data were processed

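Labeled cRNA made from the RNA of 9 bladder tissues (3 tumors, 3 adjacent, 3 normal) was hybridised to 3′ expression arrays. The authors scanned the arrays with Command Console 3.1 and deposited MAS 5.0 signals on the log2 scale, scaled to a trimmed mean of 500.15 to 500.18 (2% of values left out at each end). That scaling holds overall brightness equal between arrays, and MAS 5.0 spreads low signals widely on the log2 scale. Probe-level intensities were not used here.

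Of 31099 probe sets, 57 controls were left out and 31042 tested. Platform annotation gave 1 gene to 20826, several to 436 and none to 9780. Each of 14217 genes (4525 with several probe sets) is represented by its brightest probe set. Pairs of groups were compared with limma 3.58.1 (R 4.3.3; eBayes with a trend) and Benjamini-Hochberg adjustment over all probe sets tested, with a threshold of 0.05. The code was tested on simulated data. The number of arrays limits the precision.

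The members, the 7 context lists, the 12 marker lists and the dim limit of 50 were chosen with earlier results of these data known. Named were all members, the 2 largest rises and falls past the threshold per list in tumor against normal, and the 3 nearest profiles per member (5 for their mean). Genes are named so for the context lists and the smooth muscle, fibroblast, urothelium and leukocyte markers, and none for the other marker lists. Upk1b, Upk2, Upk3a, Optc, Chadl, Tsku, Vcan, Fap, Thy1, Pdgfrb, Vim and the leukocyte markers other than S100a8 and S100a9 fall outside the rule. They were chosen after their values were seen. Dpt and Mfap5 are named as shared by the collagen and fibroblast lists. Cenpp was chosen for its position. Alternatives covered normalization, centring, filtering, added signal, the eBayes trend, all arrays in 1 fit, the replicate block, the methods' t-test, averaged probe sets and arrays left out.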

Additional observations from a re-analysis of the deposited data

How the results depend on the processing

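The share of all genes that fell under the same setting is given in brackets. In tumor against normal, 3 members changed (9.95%). The count was 0 with eBayes without a trend (3.89%) and 0 by the methods' t-test after Benjamini-Hochberg adjustment (2.64%), and ranged from 0 to 9 when an array was left out (2.23% to 17.5%). It was 3 with the replicate block (6.89%), under quantile normalization (9.95%) and without probe sets under the 40th percentile of brightness (13.5%), 4 with arrays centred on their medians (7.67%), with 50 added (11.1%) and with all 9 arrays in 1 fit (8.57%), and 2 (6.99%) with signals under 50 set to 50, a setting added after seeing the data. In adjacent against normal, 7 members changed (11.5%). The count was 3 with eBayes without a trend (6.97%), 2 with all 9 arrays in 1 fit (8.76%), 2 by the methods' t-test after adjustment (4.33%), 4 with signals under 50 set to 50 (9.09%), 8 with the replicate block (9.88%), and 3 to 8 when an array was left out (5.66% to 14%). Against normal, the replicate block joined arrays by number only, as the normal bladders came from other rats, so it is not a pairing. No member changed in tumor against adjacent tissue under any of these settings. There the sign turned for Bgn (-1.18 to 0.53), Fmod (-1.71 to 0.28), Aspn (-0.80 to 0.26) and Prelp (-2.55 to 0.50) when an array was left out, and for Omd (0.01) with signals under 50 set to 50. Egfr turned to 0.04 in tumor against normal with the mean of its probe sets. Same-numbered tumor and adjacent arrays correlated at 0.24, 0.04 and 0.14 in their deviations, and tumor 2 was closest to adjacent 3 (0.11), so the numbers were not shown to pair them. Leaving the first tumor out of the gene list counts was also chosen after seeing the data. The cause of these changes was not tested. Dim signals limit Ogn, Omd and Prelp most.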
